A study of Mus musculus with 6 samples.

Results

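The genes described are 9 that hydroxylate collagen chains in the endoplasmic reticulum (ER) or assist that step, namely the prolyl 4-hydroxylase subunits P4ha1, P4ha2, P4ha3 and P4hb, the lysyl hydroxylases Plod1, Plod2 and Plod3, the collagen chaperone Serpinh1 and the prolyl 3-hydroxylation partner Crtap. The family was chosen from these same data, because of the large difference of P4ha3 between transgenic and wild-type samples, so the differences of its members between the groups are given as a description, with no p-value. Of the 9 genes, 8 had a probe set of their own among 22180 named genes, each with 1 probe set. Plod3 was not analysed here as a single gene. Dermal fibroblasts were sorted from ventral skin of female mice on a C57BL/6 background, aged 8 to 12 weeks. One group (KrP) carried the K14-PTHrP transgene, in which parathyroid hormone-related protein is made from a keratin 14 promoter, active in the basal epidermis, and the ventral skin is nipple-like, and the other (WT) were wild-type littermates. Each group had 3 samples on 1 array each, cells were pooled before sorting, and the labels name 3 mice without saying whether per sample, so the spread between samples may be technical.

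Collagen chains are modified in the ER before 3 of them fold into a triple helix. Prolyl 4-hydroxylases are built from catalytic alpha subunits (P4ha1, P4ha2 or P4ha3) and the beta subunit P4hb, and the hydroxyproline they make stabilises the helix at body temperature. Lysyl hydroxylases make the hydroxylysine that carries sugars and sets the kind of cross-link formed later in the fibre. Both enzyme families use molecular oxygen, iron, 2-oxoglutarate and ascorbate, and fibroblasts are the main source of collagen in the dermis.

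The sorted cells carried the markers of fibroblasts. All 10 fibroblast markers measured lay above the 95th percentile of 1105 olfactory receptor genes (log2 value 6.28), used as a guide to background. Among them was Pdgfra, which encodes CD140a (the sorted antigen is given as CD140). The mean of the 10 markers ran from 11.46 to 12.02 in WT and from 11.85 to 12.38 in KrP samples. Mean log2 values of leukocyte markers were 6.46 to 6.64 in WT and 6.49 to 6.50 in KrP samples, those of endothelial markers 6.56 to 6.86 and 6.41 to 6.56, and those of keratinocyte markers 6.28 to 6.98 and 6.20 to 6.45. Array medians were 6.34 to 6.43. In at least 1 group, 6 of 13 leukocyte, 7 of 10 endothelial and 6 of 10 keratinocyte markers also had a mean above 6.28. These lists were thus not wholly at background. Of 22180 genes, 483 passed limma at an adjusted p under 0.05 (255 higher and 228 lower in KrP samples), and 1851 passed with the replicate number as a block. Without KrP 3 the count was 85, without WT 3 101, and without KrP 2 1116.

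The catalytic alpha subunits of prolyl 4-hydroxylase did not move together. P4ha3 had log2 values of 7.63, 7.93 and 8.25 in WT samples 1 to 3 and 11.04, 10.67 and 11.15 in KrP samples 1 to 3. The lowest KrP sample lay 2.42 log2 units above the highest WT sample. The group means were 7.94 ± 0.31 and 10.95 ± 0.25 (SD, n = 3 each), a difference of 3.02 ± 0.19 (SE), or 8.09-fold, the third largest positive difference among all named genes. P4ha1, the alpha subunit best known as the general form in most tissues, had log2 values of 10.85, 11.15 and 10.87 in WT and 11.02, 11.20 and 10.93 in KrP samples. Its groups overlapped, with a difference of 0.09 ± 0.12 (SE) and a 95% interval from -0.19 to 0.37. Leaving out 1 sample in turn moved it between 0.02 (without KrP 2) and 0.19 (without WT 2). P4ha2, the second alpha subunit, had 8.15, 8.63 and 7.98 in WT and 8.12, 8.28 and 8.35 in KrP samples. All 3 KrP values of P4ha2 fell inside the WT range, and the difference was -0.00 ± 0.18 (SE), with a 95% interval from -0.42 to 0.41 and a sign that changed with the samples left out and with array weights. The intervals of P4ha1 and P4ha2 did not reach the size seen in P4ha3, and they do not show that these genes were at the same level in both groups.

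The beta subunit P4hb, the protein disulphide isomerase that keeps the alpha subunits soluble and also folds other proteins, was slightly higher in KrP samples. Its log2 values were 12.17, 11.96 and 11.92 in WT and 12.52, 12.23 and 12.28 in KrP samples. The groups did not overlap, but the gap between them was only 0.06. Means were 12.02 ± 0.13 and 12.34 ± 0.16 (SD, n = 3 each), a difference of 0.33 ± 0.11 (SE), or 1.25-fold. This was a far smaller difference than that of the alpha subunit P4ha3.

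**Figure D1:**
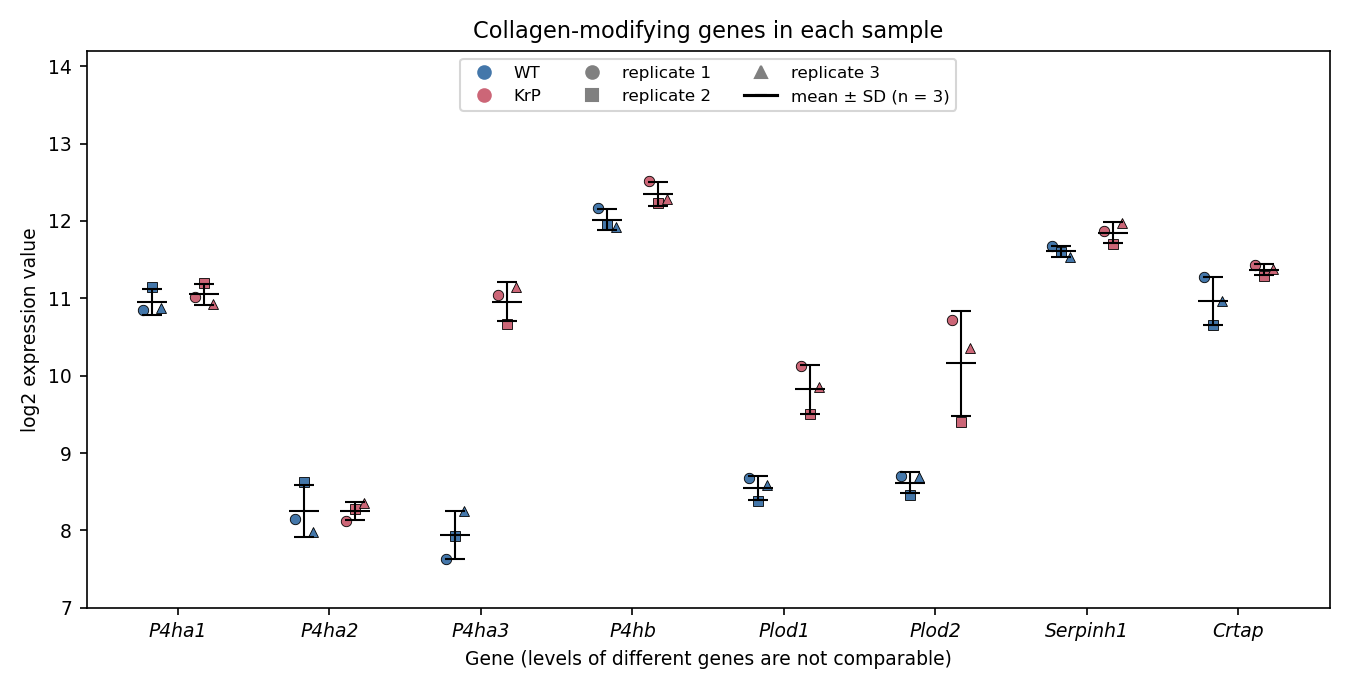
Log2 expression values (vertical axis) of the 8 measured genes in each WT (blue) and KrP (red) sample. Marker shape gives the replicate number, and the bars give the group mean ± SD (n = 3). P4ha3, Plod1 and Plod2 show the groups well apart, whereas those of P4ha1 and P4ha2 overlap.

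Both measured lysyl hydroxylases were higher in KrP fibroblasts. Plod1, which hydroxylates lysines in the helical part of collagen, had log2 values of 8.68, 8.38 and 8.59 in WT and 10.13, 9.50 and 9.85 in KrP samples. The lowest KrP sample, KrP 2, lay 0.82 above the highest WT sample. The means were 8.55 ± 0.15 and 9.83 ± 0.32 (SD, n = 3 each), a difference of 1.28 ± 0.18 (SE), or 2.42-fold. Plod2, which hydroxylates lysines in the telopeptides, where cross-links start, had 8.70, 8.46 and 8.69 in WT and 10.72, 9.40 and 10.36 in KrP samples. The groups were 0.70 apart, but the KrP samples spread widely, with KrP 2 1.14 below the mean of KrP 1 and KrP 3. Its means were 8.62 ± 0.14 and 10.16 ± 0.68 (SD, n = 3 each), a difference of 1.54 ± 0.30 (SE), or 2.91-fold. Without KrP 2 the difference of Plod2 was 1.92, the highest over the fits leaving out a sample, and the lowest was 1.26.

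The chaperone and the prolyl 3-hydroxylation partner differed by smaller amounts. Serpinh1, which binds the folded procollagen helix in the ER, had log2 values of 11.68, 11.60 and 11.54 in WT and 11.87, 11.70 and 11.97 in KrP samples. The gap between its groups was 0.02, and the difference was 0.24 ± 0.10 (SE), or 1.18-fold. Crtap, which forms a complex with the prolyl 3-hydroxylase P3h1 and the isomerase Ppib, had 11.28, 10.66 and 10.97 in WT and 11.43, 11.29 and 11.38 in KrP samples. WT 1 came within 0.01 of the lowest KrP sample, and the difference was 0.40 ± 0.15 (SE), or 1.32-fold. It was 0.24 without WT 2 and 0.55 without WT 1. In both genes the groups touched almost edge to edge.

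**Figure D2:**
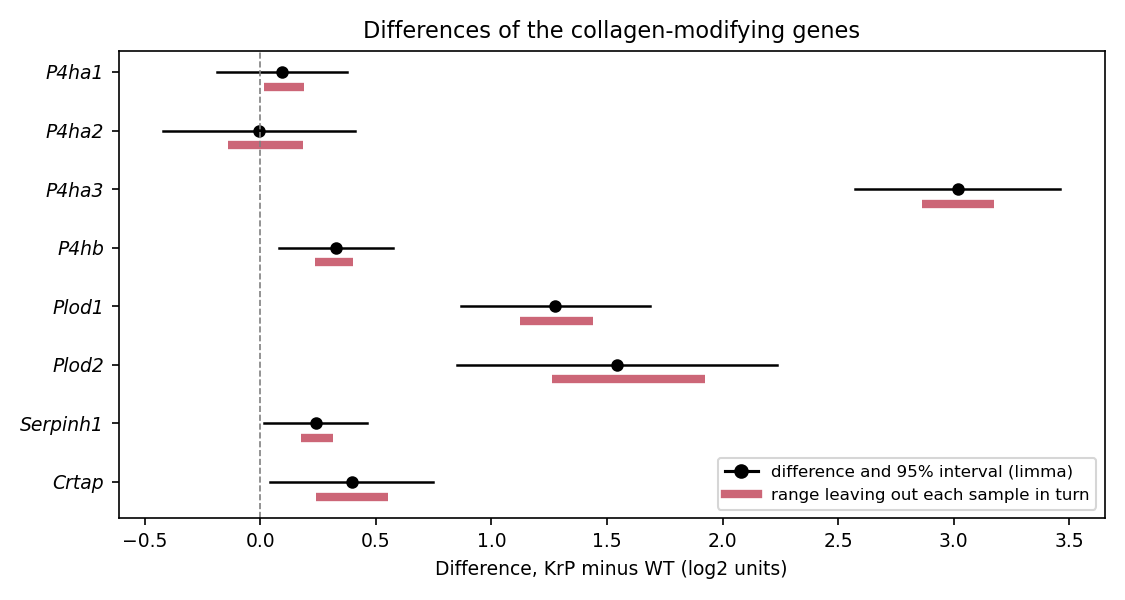
Differences between the group means, KrP minus WT, in log2 units (horizontal axis) for the 8 measured genes. Points and black lines give the difference and its 95% interval from limma, and red bars the range of the difference when each of the 6 samples was left out in turn. P4ha3 (3.02), Plod2 (1.54) and Plod1 (1.28) lie far to the right of the other 5 genes.

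In all, 3 of the 8 genes (P4ha3, Plod1 and Plod2) passed the test higher in KrP samples and none lower, where 1.15% of all named genes passed as higher and 1.03% as lower. The groups did not overlap in 6 of the 8, all with KrP above WT, as held for 11.4% of all genes, while 8.93% had KrP below WT. The median difference over the 8 was 0.36, against 0.01 over all genes. Since the family was chosen on this contrast, nothing is read from these counts. With the replicate block, under which 5.33% of all genes passed as higher, P4hb passed too and the count was 4. The count depended on the samples: Plod1 missed the threshold without WT 3 and without KrP 3, and Plod2 without WT 1, WT 2, WT 3, KrP 1 or KrP 3, which left 1 of the 8 without WT 3 and without KrP 3. Since these are bulk samples, a change in the share of a fibroblast type and a change in RNA per cell cannot be told apart.

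The spread within the groups was shared by some of the genes. KrP 2 was the lowest KrP sample for 6 of the 8 genes, whereas it was the lowest for 31.5% of all named genes. For P4ha3 it lay 0.43 below the mean of KrP 1 and KrP 3, for Plod1 0.49 below and for Plod2 1.14 below. P4ha1 went the other way, with KrP 2 the highest KrP sample at 0.15 above its group mean and WT 2 the highest WT sample at 0.19 above. WT 2 was likewise the highest WT sample of P4ha2, at 0.38 above the mean, and the lowest of Plod1, Plod2 and Crtap, at -0.17, -0.16 and -0.31. Samples numbered 2 thus stood low for the lysyl hydroxylases and high for P4ha1 in both genotypes. Without both samples numbered 2 the differences were 3.15 for P4ha3, 1.84 for Plod2 and 1.35 for Plod1, larger than with all 6 samples. The markers of keratinocytes also moved with WT 2, by a median of 0.44 above the WT mean, and those of leukocytes by 0.14, and their part in the values of the hydroxylases was not tested.

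**Figure D3:**
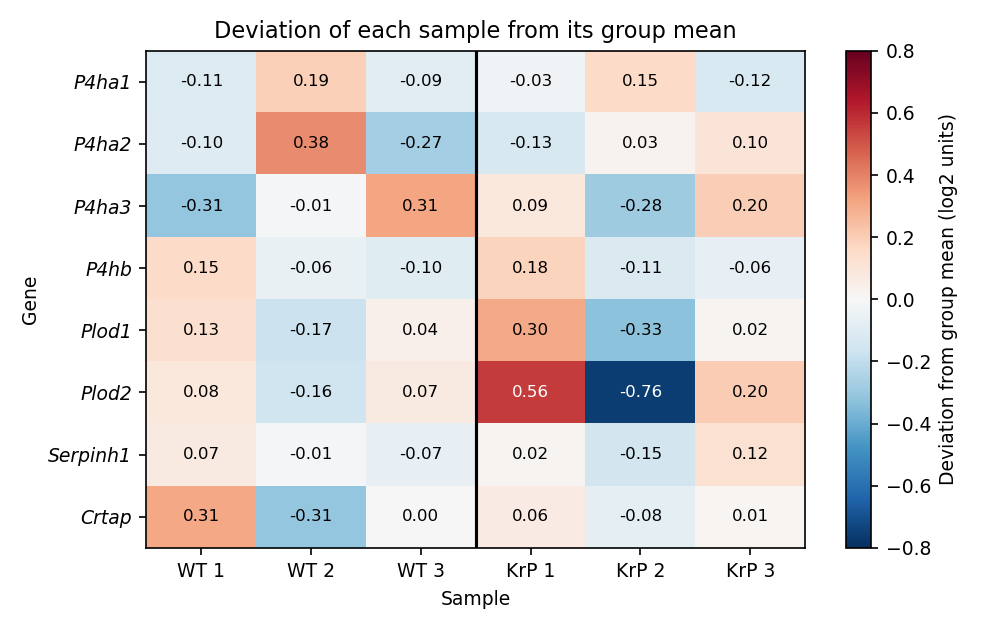
Deviation of each sample (columns) from the mean of its own group, in log2 units, for the 8 measured genes (rows). Red is above and blue below the group mean. KrP 2 is lowest for Plod2 (-0.76), while WT 2 is highest for P4ha1 (0.19) and P4ha2 (0.38).

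The promoters of the alpha subunits are printed because these share an enzyme step but not a difference between the groups, and that of Plod1 because it is a lysyl hydroxylase, of the separate enzyme step, that was higher in KrP samples. P4ha1, P4ha2, Plod1 and Plod2 are textbook targets of the hypoxia-inducible factors, which bind a core of ACGTG or GCGTG. RefSeq promoters of the assembly GRCm38.p6, 250 bases before to 50 after the start site, were found for 8 of the 9 genes. No promoter of this length was found for Plod2. They run 5′ to 3′ on the gene's strand, and capitals mark each ACGTG or GCGTG on either strand (CACGT and CACGC on the other). The assembly gives the coordinates of these sequences only, since no build is given for the array values in the sources used here.
P4ha1, chr10:59323046-59323345, plus strand: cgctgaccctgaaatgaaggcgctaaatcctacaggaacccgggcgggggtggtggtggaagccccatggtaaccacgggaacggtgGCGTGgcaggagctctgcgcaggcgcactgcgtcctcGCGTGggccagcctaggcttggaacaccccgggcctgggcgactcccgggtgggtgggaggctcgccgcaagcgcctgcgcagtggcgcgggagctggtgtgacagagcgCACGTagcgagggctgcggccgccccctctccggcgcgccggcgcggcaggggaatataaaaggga
P4ha2, chr11:54100674-54100973, plus strand: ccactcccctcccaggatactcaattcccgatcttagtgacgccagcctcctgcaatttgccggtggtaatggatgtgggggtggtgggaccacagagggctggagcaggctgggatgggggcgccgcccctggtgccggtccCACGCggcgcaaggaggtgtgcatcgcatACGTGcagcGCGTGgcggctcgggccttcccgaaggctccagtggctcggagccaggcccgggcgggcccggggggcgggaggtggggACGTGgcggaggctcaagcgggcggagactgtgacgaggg
P4ha3, chr7:100285270-100285569, plus strand: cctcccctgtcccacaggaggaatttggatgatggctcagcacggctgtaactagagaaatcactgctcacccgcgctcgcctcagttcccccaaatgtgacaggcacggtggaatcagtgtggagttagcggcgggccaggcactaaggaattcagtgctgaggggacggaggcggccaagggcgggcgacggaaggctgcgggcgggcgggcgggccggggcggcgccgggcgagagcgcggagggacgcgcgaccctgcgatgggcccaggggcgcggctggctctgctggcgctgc
Plod1, chr4:147936727-147937026, minus strand: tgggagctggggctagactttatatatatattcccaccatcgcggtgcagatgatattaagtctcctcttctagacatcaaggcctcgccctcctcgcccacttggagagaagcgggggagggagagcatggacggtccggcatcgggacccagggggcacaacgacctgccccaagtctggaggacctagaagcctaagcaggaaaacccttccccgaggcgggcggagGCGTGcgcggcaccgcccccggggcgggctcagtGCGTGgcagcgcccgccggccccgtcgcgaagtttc
P4ha1 held 3 matches, P4ha2 held 4, Plod1 held 2 and P4ha3 held 0. A CACGTG would count for the core on both strands, but no match overlapped another in these sequences. Outside the printed set, P4hb and Crtap held 3 matches each, Plod3 held 4 and Serpinh1 1. Of 32851 promoters of the same length, 43.8% held at least 1 match of either core, so a match is common, and a match or its absence in this window says nothing of binding.

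Genes beside the hydroxylases on their chromosomes were read next, taking the 5 measured genes on either side. None of the 10 neighbours of P4ha3 passed limma (1 at an unadjusted p under 0.05), also with the replicate block, and their differences ran from -0.11 to 0.36. None of the 10 neighbours of Plod1 (-0.79 to 0.68) or of Plod2 (-0.20 to 0.63) passed without the block, with 3 and 1 at an unadjusted p under 0.05. With the block 2 beside Plod1 passed, Agtrap as higher (difference 0.68, limma adjusted p = 0.0707, or 0.0144 with the block) and Nppb as lower (-0.79, adjusted p = 0.385, or 0.0489 with the block). Plscr4 beside Plod2 also passed as higher with the block (difference 0.63, limma adjusted p = 0.373, or 0.0404 with the block). Over all 8 genes, 1 of 80 neighbours passed, where 2.18% of all named genes did, and with the block 7 of 80 passed, where 8.35% did. The other block calls were all lower in KrP samples, namely Sowahc beside P4ha1 (difference -0.72, limma adjusted p = 0.0963, or 0.0166 with the block) and Slc22a4 (-0.56, adjusted p = 0.0743, or 0.0190 with the block) and Csf2 (-1.64, adjusted p = 0.343, or 0.0307 with the block) beside P4ha2. The gene that passed in both fits was Septin10, which encodes a cytoskeletal septin and lies beside P4ha1, with log2 values of 8.62, 8.60 and 8.41 in WT and 9.31, 9.17 and 9.17 in KrP samples (difference 0.67 ± 0.12 SE, limma adjusted p = 0.0347). Its call ended with quantile normalisation and without any 1 of WT 1, WT 2, WT 3, KrP 1 or KrP 3 (limma adjusted p up to 0.185).

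**Figure D4:**
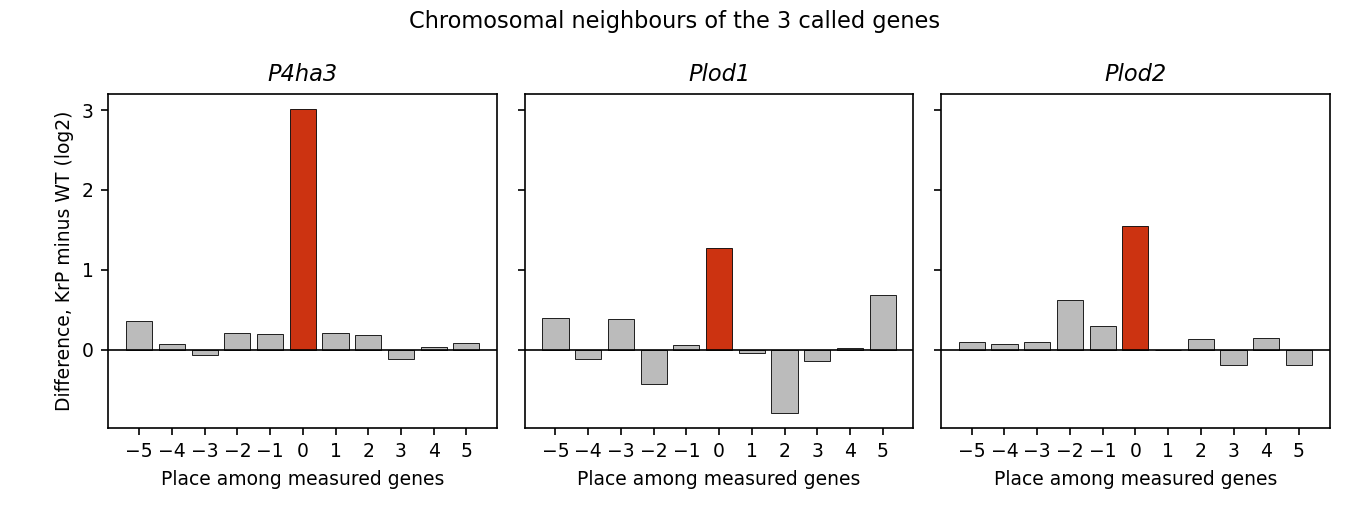
Differences between the group means, KrP minus WT, in log2 units (vertical axis) for P4ha3, Plod1 and Plod2 (red, place 0) and for the 5 measured genes on either side of each on the chromosome (grey, in order of position). P4ha3 stands at 3.02 between neighbours from -0.11 to 0.36.

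The genes whose profile over the 6 samples was most like that of P4ha3 came from other functions. Likeness was measured as the root mean square difference after each gene was centred on its own mean, over 6 samples. The closest was the urea transporter Slc14a1 (0.34 log2 units), followed by the copper-dependent monooxygenase Moxd1 (0.36), the secreted protease Htra4 (0.37), the chemokine Cxcl14 (0.41) and the Wnt inhibitor Sfrp1 (0.41). Slc14a1 had log2 values of 7.62, 7.75 and 7.40 in WT and 10.53, 9.74 and 10.39 in KrP samples, with KrP 2 the lowest KrP sample, as for P4ha3. The WT order differed, with WT 3 the lowest WT sample of Slc14a1 and the highest of P4ha3. Differences of the 5 genes ran from 2.27 to 3.44, so a group difference of like size made up much of this likeness. None of the 5 hydroxylates collagen.

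Other enzymes and chaperones of procollagen in the ER gave no call. Of 10 measured, 0 passed limma (4 at an unadjusted p under 0.05), while 9 had a positive difference and the median was 0.34. With the replicate block 3 passed as higher. These were P3h3 (difference 0.60, limma adjusted p = 0.222, or 0.0192 with the block), P3h4 (0.77, adjusted p = 0.0794, or 0.0101 with the block) and Ppib (0.35, adjusted p = 0.252, or 0.0385 with the block). P3h3 and P3h4 are known to form a complex with Plod1 that supports lysyl hydroxylation. KrP lay above WT without overlap in both, by only 0.04 for P3h3 and by 0.33 for P3h4. They were the 2 of the 10 genes for which this held, as it did for 11.4% of all genes. P3h1, the prolyl 3-hydroxylase that works with Crtap, had log2 values of 9.31, 9.05 and 9.17 in WT and 9.81, 9.10 and 9.65 in KrP samples, which overlapped (limma adjusted p = 0.435). P3h2, known mainly for basement membrane collagens, had a difference of -0.82 ± 0.22 (SE; limma adjusted p = 0.110), with all KrP samples below all WT samples. The glycosyltransferase Colgalt1, which acts on hydroxylysine, had a difference of 0.10 ± 0.09. Chosen after its value was seen, P3h2 was the 1 gene of the list with a negative difference.

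Of 11 fibrillar procollagen chains, on which these enzymes act, 1 passed limma as higher and none as lower (4 higher with the block). A positive difference was seen in 7 of the 11, as in 50.8% of all named genes, and the differences ran from -0.21 to 1.18 with a median of 0.57. The chain that passed was Col5a3, with log2 values of 8.57, 8.74 and 8.73 in WT and 9.36, 9.24 and 9.43 in KrP samples (difference 0.66 ± 0.12 SE, limma adjusted p = 0.0347). Col5a3 missed the threshold with quantile normalisation and without any 1 of the samples other than KrP 2 (limma adjusted p up to 0.214). Col1a1, the main chain of type I collagen, had log2 values of 10.33, 10.78 and 11.84 in WT and 12.44, 11.26 and 12.79 in KrP samples. KrP 2 lay below WT 3, so the groups overlapped (difference 1.18 ± 0.46 SE, limma adjusted p = 0.258, or 0.0486 with the block). Col3a1 overlapped as well, with a difference of 0.84 ± 0.53 (limma adjusted p = 0.498). With the block, Col1a2 (limma adjusted p = 0.237, or 0.0323 with the block) and Col5a1 (0.0775, or 0.0350 with the block) also passed. The groups of Col1a2 overlapped.

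Genes that carry procollagen out of the ER gave no call, and those that cut its propeptides gave calls in both directions. Of 12 export genes 0 passed limma (5 at an unadjusted p under 0.05, and 2 higher with the block), while 11 had a positive difference and the median was 0.15. The 2 were Kdelr3, a receptor that returns ER proteins such as P4hb from the Golgi (difference 1.07, limma adjusted p = 0.0840, or 0.00311 with the block), and Creb3l1, a transcription factor of collagen secretion (0.57, adjusted p = 0.159, or 0.0166 with the block). Of 9 propeptide processing genes, 1 passed as higher and 1 as lower, where 1.15% and 1.03% of all named genes did. With the block 1 passed as higher and 2 as lower, where 5.33% and 3.02% of all named genes did. Adamts14, a procollagen N-proteinase, had log2 values of 8.35, 8.20 and 8.20 in WT and 9.11, 9.90 and 9.37 in KrP samples (difference 1.21 ± 0.20 SE, limma adjusted p = 0.0248). Adamts14 lost the call without WT 1, WT 2, WT 3 or KrP 3 (limma adjusted p up to 0.133). Tll1, a tolloid-like procollagen C-proteinase, went the other way, from 8.91, 8.65 and 8.58 in WT to 6.39, 6.88 and 6.46 in KrP samples. It was 4.40-fold lower (difference -2.14 ± 0.17 SE, limma adjusted p = 0.00162) and passed under all 16 alternatives. Its KrP mean was 6.58, beside the background guide of 6.28. Its relative Bmp1, the main C-proteinase, had a difference of -0.11 ± 0.12 (limma adjusted p = 0.753). Pcolce2, an enhancer of that cleavage, passed as lower with the block (difference -0.56, limma adjusted p = 0.146, or 0.00754 with the block).

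General folding genes of the ER showed small differences, most of them positive. Of 14 protein disulphide isomerases and ER chaperones, 1 passed limma as higher and none as lower (3 higher with the block). At an unadjusted limma p under 0.05 there were 7, all higher. The groups did not overlap in 7, all with KrP above WT, as held for 11.4% of all genes. A positive difference was seen in 12, and the median was 0.23. Sdf2l1, an ER chaperone cofactor, was 1.65-fold higher (difference 0.72 ± 0.15 SE, limma adjusted p = 0.0492) and missed the threshold without any 1 of the samples other than KrP 2 (limma adjusted p up to 0.253) and with quantile normalisation. Pdia5 (difference 0.57, limma adjusted p = 0.0655) and Creld2 (0.52, adjusted p = 0.0718) passed with the block (adjusted p = 0.0224 and 0.0297).

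Other enzymes of the same chemistry and the supply of their cofactors were not called together in either direction. Of 22 other oxygenases that use 2-oxoglutarate, 0 passed limma (8 at an unadjusted p under 0.05), and with the block 3 passed as higher (Phyh, Tmlhe and Fto) and 2 as lower (Egln3 and Kdm6b), with a median difference of -0.04. The transmembrane prolyl hydroxylase P4htm had a difference of 0.15 ± 0.11. Of 19 genes of ascorbate and iron supply, 1 passed as higher and 1 as lower (1 and 2 with the block, the added gene being the metal transporter Slc39a14). At an unadjusted limma p under 0.05, 1 was higher and 6 were lower, and the median difference of the list was -0.12. KrP lay above WT without overlap in 1 gene and below in 5, where 11.4% and 8.93% of all genes did. Heph, a ferroxidase that helps iron leave cells, rose from log2 values of 7.45, 8.14 and 7.59 to 9.63, 9.06 and 9.42 (difference 1.64 ± 0.22 SE, limma adjusted p = 0.0107). The iron exporter Slc40a1, with which it works, fell from 7.03, 7.30 and 7.15 to 6.00, 6.49 and 6.45 (difference -0.85 ± 0.16 SE, limma adjusted p = 0.0378). The KrP mean of Slc40a1, 6.31, lay at the background guide of 6.28. Heph lost its call without WT 3 or KrP 3 (limma adjusted p up to 0.0801), and Slc40a1 without any 1 of the samples other than KrP 2 (up to 0.159). Slc23a2, the ascorbate transporter, had a difference of -0.52 ± 0.17 (limma adjusted p = 0.175), with all KrP samples below all WT samples, and was chosen after its value was seen.

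Genes of the hypoxia and TGF-beta responses were counted next, and their part in the values of the hydroxylases was not tested. Of 22 hypoxia response genes, 1 passed as higher and 1 as lower (2 and 3 with the block), and the median difference was 0.00. The genes added by the block were the glycolytic Tpi1 as higher and Hk2 and Egln3 as lower. Car12, a carbonic anhydrase, had a difference of 1.17 ± 0.21 (SE; limma adjusted p = 0.0329), and Ndrg1, a stress-induced gene, of -1.15 ± 0.16 (limma adjusted p = 0.0130). Vegfa, chosen after its value was seen, had log2 values of 12.64, 12.82 and 12.67 in WT and 12.64, 12.74 and 12.75 in KrP samples. Of 15 TGF-beta response genes, none passed as higher and 1 as lower (3 and 5 with the block), and the median was -0.19. The 1 gene was Tgfb1 itself, with a difference of -1.09 ± 0.16 (limma adjusted p = 0.0175). KrP lay above WT without overlap in 4 of the 15 genes and below in 5, where 11.4% and 8.93% of all genes did. At an unadjusted limma p under 0.05, 4 were higher and 5 lower. With the block the matrix genes Postn and Fn1 and the actin gene Acta2 passed as higher, and Tgfbi, Smad7, Skil and Ltbp2 as lower beside Tgfb1. Without KrP 3 or without WT 3 the calls of Car12, Ndrg1 and Tgfb1 ended, as did that of Car12 without WT 1 and those of Ndrg1 and Tgfb1 without WT 2 (limma adjusted p up to 0.171, 0.0763 and 0.104).

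**Figure D5:**
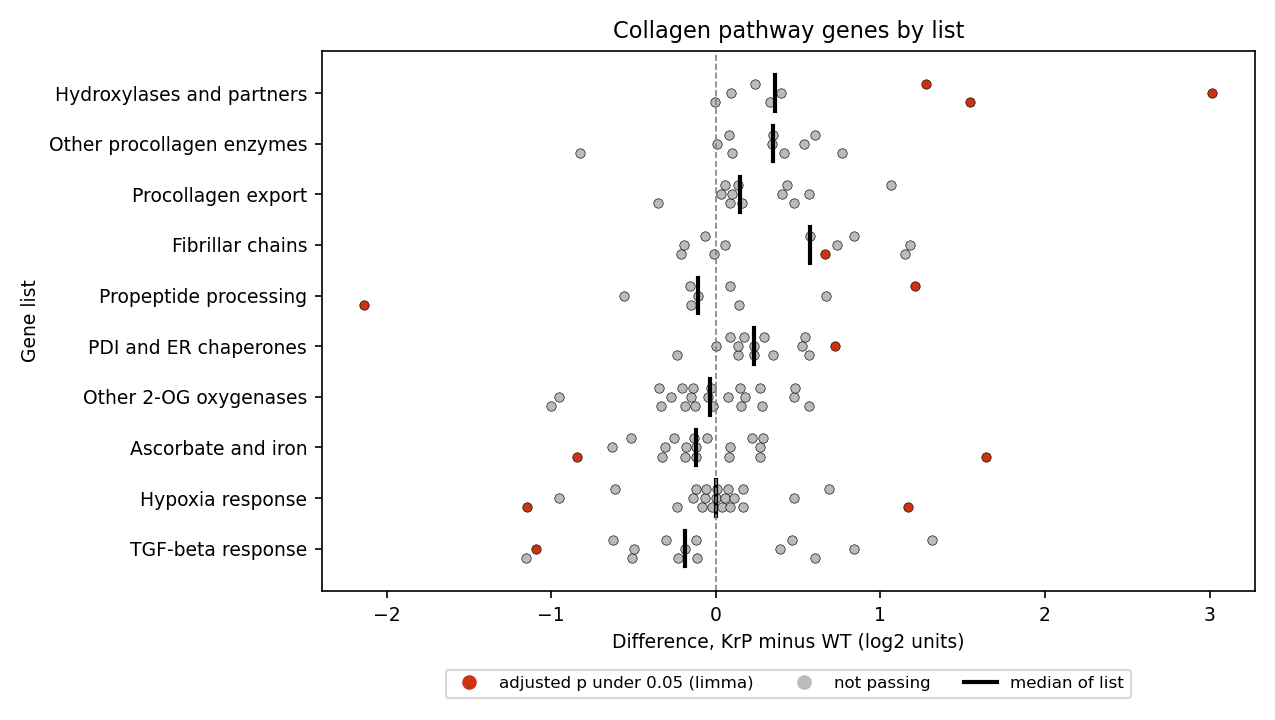
Differences between the group means, KrP minus WT, in log2 units (horizontal axis) for each measured gene of 10 lists (rows). Red points passed limma at an adjusted p under 0.05, grey points did not, and black bars give the list medians. The hydroxylases have 3 red points on the right, at 1.28, 1.54 and 3.02, and the hypoxia list is centred on 0.00.

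Markers of other cell types that the sort could hold were also compared. Of 13 leukocyte markers 1 passed limma as higher, Csf1r (difference 0.73 ± 0.13 SE, adjusted p = 0.0347). Ptprc, which encodes the gated CD45, lay at 4.56 to 5.15 in WT and 4.44 to 4.99 in KrP samples, below the background guide. Kit (CD117) lay around the guide, at 5.92 to 6.44 in WT and 6.15 to 6.22 in KrP samples. The other gated antigens lay above it. Pecam1 (CD31) ran from 6.49 to 7.13 in WT and from 6.58 to 6.74 in KrP samples. Itga6 (CD49f) ran from 7.16 to 7.91 in WT and from 6.49 to 8.16 in KrP samples. Of 10 endothelial markers 2 passed as lower, where 1.03% of all named genes did. They were Cldn5 (difference -0.95, limma adjusted p = 0.0130) and Tek (-0.76, adjusted p = 0.0386). In KrP samples Cldn5 lay around the background guide, at 6.20, 6.34 and 6.10, and Tek below it, at 5.67, 5.60 and 6.02. Of 10 pericyte and smooth muscle markers 1 passed as lower, Cspg4 (difference -1.10, limma adjusted p = 0.0298). The calls of Csf1r, Cldn5, Tek and Cspg4 ended without WT 3 and without KrP 3 (limma adjusted p up to 0.196). Those of Csf1r, Tek and Cspg4 also ended without WT 1, and those of Tek and Cspg4 without WT 2. Those of Csf1r and Tek ended without KrP 1, that of Tek without KrP 2, and that of Csf1r with quantile normalisation. None of 10 keratinocyte markers and none of 8 melanocyte, Schwann and mast cell markers passed, with or without the block, although 1 and 2 of them had an unadjusted limma p under 0.05. With the block Cd14, a monocyte gene, passed as higher (difference 0.55, limma adjusted p = 0.724, or 0.0460 with the block). The groups of Cd14 overlapped. Acta2 also passed as higher with the block, and Kdr, an endothelial receptor, as lower. Of 10 fibroblast markers 0 passed limma (5 at an unadjusted p under 0.05). With the block Pdgfrb, a growth factor receptor, Col1a1 and Col1a2 passed as higher. The groups of Pdgfrb overlapped (difference 0.43, limma adjusted p = 0.428, or 0.0153 with the block). The part of these markers in the values of the hydroxylases was not tested.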

How the data were processed

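Expression was measured on 1 array per sample in 3 WT and 3 KrP samples. The deposited table holds log2 values made by the authors. The submitters' processing notes name RMA and Partek, with no version or role. Per the labels' protocols, 100 ng of total RNA was labelled, from cells with CD140 and without CD31, CD45, CD117 or CD49f. Descriptions of KrP samples 2 and 3 give another keratin than K14, and their genotype labels were used. Of 34390 probe sets, 23521 had 1 gene in the platform annotation (23328 matched to RefSeq names by gene ID), and the one with the highest mean stood for its gene. Arrays carry no read depth, so their number limits the precision.

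KrP and WT were compared with limma 3.58.1 in R 4.3.3 (lmFit, eBayes with a trend, no filter or block). P-values were adjusted by Benjamini-Hochberg over 22180 genes with a threshold of 0.05, and every adjusted p comes from limma. Counts at an unadjusted p under 0.05 are given without the share of all named genes at that level, so nothing is read from them. The code was tested on simulated data. The genes, the 15 other lists and the tests were chosen with earlier results of these data known. Named genes are the family, up to 3 called genes per list and direction, the members of small counts, the 5 profiles closest to P4ha3, called neighbours and a few fixed names. Same-numbered samples deviated together across genes (correlations 0.414, 0.350 and 0.120, all above 0.1), a pairing seen in the data and not in a label, so the block is shown where it moved a call. Protein sequences were not used here. Plots were made in matplotlib 3.10.9 (Python 3.11.15).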

Additional observations from a re-analysis of the deposited data

How the results depend on the processing

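Counts of called genes and the smaller differences of the hydroxylases depended on how the samples entered the fit. Over 16 alternatives the difference of P4ha3 ran from 2.86 to 3.17, that of Plod1 from 1.12 to 1.44, that of Plod2 from 1.26 to 1.92, that of P4hb from 0.24 to 0.40, that of Crtap from 0.24 to 0.55, that of Serpinh1 from 0.18 to 0.38 (highest with array weights), that of P4ha1 from 0.02 to 0.19 and that of P4ha2 from -0.14 to 0.26. Plod2 missed the threshold with quantile normalisation and with median centring. The cause was not tested. With estimated array weights the fit rested mainly on KrP 3 (weight 7.91) and WT 3 (2.66).

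With the replicate block 1851 genes passed in place of 483. The block gave 4 hydroxylase genes, 3 other procollagen enzymes, 2 export genes, 4 fibrillar chains, 3 ER chaperones, 5 other oxygenases, 5 hypoxia genes, 8 TGF-beta genes and, among markers, 2 of leukocytes, 2 of pericytes and 3 of fibroblasts. With array weights 6410 genes passed, with 6 hydroxylase genes, 7 other procollagen enzymes, 5 export genes, 5 fibrillar chains, 4 propeptide genes, 8 ER chaperones, 11 other oxygenases, 9 ascorbate and iron genes, 6 hypoxia genes, 11 TGF-beta genes and, among markers, 2 of leukocytes, 4 of endothelium, 1 of keratinocytes, 2 of melanocytes, Schwann and mast cells, 3 of pericytes and 6 of fibroblasts. Without both samples numbered 2, 890 genes passed, with 2 other procollagen enzymes, 2 export genes, 2 fibrillar chains, 3 ER chaperones, 2 other oxygenases, 2 TGF-beta genes and 1 fibroblast marker. ER chaperones had 2 calls without the trend, 3 without the lower 50% of genes and 0 with quantile normalisation, which also left 0 fibrillar chains and 0 leukocyte markers, by limma in each case. Without the lower 50% of genes there was 1 call each for ascorbate and iron and for hypoxia genes, and 0 for endothelial markers.

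Leaving out each sample in turn, 85 to 1116 genes passed (lowest without KrP 3, highest without KrP 2), with 1 to 3 hydroxylase genes, 0 to 1 other procollagen enzymes, 0 to 2 export genes, 0 to 3 fibrillar chains, 1 to 4 propeptide genes, 0 to 3 ER chaperones, 0 to 3 other oxygenases, 0 to 4 ascorbate and iron genes, 0 to 4 hypoxia genes and 0 to 3 TGF-beta genes. The marker lists of leukocytes, endothelium, melanocytes with Schwann and mast cells, pericytes and fibroblasts had 0 to 1 calls each.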
